A study of Mus musculus with 6 samples.

Results

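The 10 genes described here encode the enzymes that build purine nucleotides from small precursors and the enzymes at the branch that follows. They are Ppat, Gart, Pfas, Paics, Adsl and Atic, which make inosine monophosphate (IMP), Adss and Adssl1, the adenylosuccinate synthases, and Impdh1 and Impdh2, the IMP dehydrogenases. The genes were chosen by name, as rows whose Ensembl identifier maps to these symbols, with the change measured in these samples already known. They are 10 of 52550 genes and 63 of 131146 transcripts in the deposited tables, and all 10 genes were found.

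The 6 samples are RNA from mouse splenic CD3+ T cells of WT genotype that had been activated for 24 h with antibodies against CD3 and CD28. In 3 samples the cells were activated without an added compound (TCR alone), and in 3 samples the small molecule DMGV (dimethylguanidino valeric acid) was present at 100 ng/ml (TCR+DMGV). The study's own text names the factor added in its sequencing experiment LNY1, a preparation of methylated arginines, whereas the labels name DMGV, and the group names used here follow the labels. The cells are a mixture of T cells from spleen, no sample was left unactivated, and the sources call the replicates independent and biological, without saying whether each came from its own mouse.

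In the synthesis of purines the ring is put together atom by atom on phosphoribosyl pyrophosphate (PRPP), with glutamine, glycine, aspartate, bicarbonate and formyl groups carried by folate as donors, until IMP is formed. IMP is then turned into AMP, by an adenylosuccinate synthase followed by Adsl, or into XMP and GMP, by an IMP dehydrogenase followed by Gmps. Resting lymphocytes rely largely on salvage of preformed bases, and activated T cells raise the synthesis of purines before they divide. The IMP dehydrogenases are the targets of mycophenolic acid, a drug used to hold back lymphocytes.

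Counts summed to between 37758725 and 43718867 per sample, above the read depth that the labels state, so a count here may not equal 1 read. T cell markers (8 genes) summed to between 2170 and 2660 CPM (counts scaled to a library of fixed size) in each sample, B cell markers (4 genes) to at most 9.24 CPM and myeloid markers (4 genes) to at most 9.06 CPM, those of stroma and endothelium (Col1a1 and Pecam1) to between 32.4 and 37.1 CPM, and the activation markers Cd69, Il2ra and Il2 to between 1100 and 1300 CPM. Siglech, a marker of plasmacytoid dendritic cells, was at 0 in all samples. TCR alone replicate 3 and TCR+DMGV replicate 1 stood apart from the other 4 samples on the first principal component, which held 32.2% of the variance, with scores of 42.1 and 42.9 against -34.9 to -10.5. Across the 14786 genes tested, 2 had an adjusted p under 0.05, or 0.0135%.

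Levels were compared between genes in FPKM, the deposited value scaled to transcript length and to the size of the library. Averaged over the 6 samples, Impdh2 was at 144.1 ± 8.21 FPKM (SD, n = 6), Gart at 133.2 ± 7.97, Paics at 102.4 ± 5.49, Adss at 62.1 ± 17.3 and Ppat at 53.6 ± 2.79. Atic followed at 45.2 ± 1.66, Adsl at 39.0 ± 2.68, Impdh1 at 32.0 ± 5.26 and Pfas at 19.2 ± 0.992, and Adssl1 was far below at 0.793 ± 0.313. Of the genes tested, 98.0% had a lower FPKM than Impdh2 and 81.5% a lower FPKM than Pfas, but 23.4% a lower FPKM than Adssl1. Ranges over the 6 samples overlapped between Impdh2 and Gart, between Atic and Adsl and between Adsl and Impdh1, so the order within these pairs is not fixed by the range. The range of Adss, from 39.1 to 78.6 FPKM, overlapped those of Ppat, Atic, Adsl and Impdh1. Within single samples Impdh2 was nonetheless above Gart, Atic above Adsl and Adsl above Impdh1 in 6 of 6, whereas Adss was above Ppat in 4 of 6, above Atic in 4 of 6, above Adsl in 5 of 6 and above Impdh1 in 5 of 6.

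**Figure D1:**
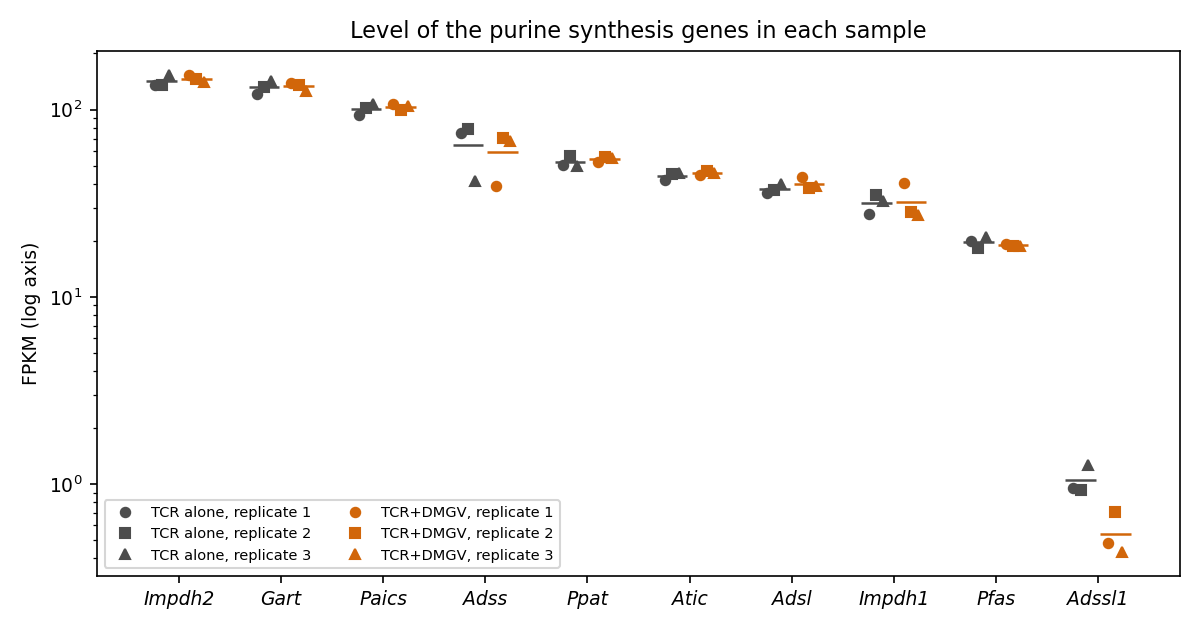
FPKM (log axis) of the 10 genes in each of the 6 samples, ordered by their mean. Grey points are the TCR alone samples, orange points the TCR+DMGV samples, shapes mark the replicate and short lines the group means. Adssl1, at 0.434 to 1.26 FPKM, lies apart from the other 9 genes, and Adss has 1 low sample in each group.

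The genes of IMP synthesis differed little between the groups. Ppat, which takes the first committed step from PRPP, lies at chr5:76913249-76951578 on the minus strand (GRCm38, GENCODE M21) and was measured at 250.0, 287.9 and 242.7 CPM in TCR alone, against 257.4, 282.4 and 279.0 CPM in TCR+DMGV. The groups overlapped, with a fitted log2 fold change of 0.07 ± 0.09 (SE; 95% interval -0.14 to 0.28). Here and below a fold change is TCR+DMGV against TCR alone, and it is given as a description. Unless another setting is named, it comes from one edgeR fit over all 14786 genes. For transcripts it comes from a separate edgeR fit over 38401 transcripts.

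Gart (chr16:91621186-91646952, minus strand) encodes a single protein with several activities of the pathway, including a step fed by folate. It was measured at 540.8, 605.9 and 626.5 CPM in TCR alone and at 611.1, 621.6 and 581.7 CPM in TCR+DMGV. Its lowest sample was TCR alone replicate 1 and its groups overlapped, with a log2 fold change of 0.03 ± 0.08 (SE). Pfas, which adds an amide nitrogen from glutamine (chr11:68985697-69008460, minus strand), had the smallest span of CPM of the 10 genes, although in FPKM Atic varied less for its level. Its CPM was 176.8, 164.9 and 181.0 in TCR alone and 168.1, 168.9 and 170.2 in TCR+DMGV, a span of 0.13 on the log2 scale between its lowest and highest sample.

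Paics, which carries out the carboxylation and the addition of aspartate (chr5:76951307-76967509, plus strand), stood at 326.0, 368.8 and 367.7 CPM in TCR alone and at 373.2, 355.4 and 378.5 CPM in TCR+DMGV. Only TCR alone replicate 1 lay below the rest, and the fitted log2 fold change was 0.06 ± 0.08 (SE). Adsl, a lyase used both in ring assembly and in the making of AMP (chr15:80948490-80970946, plus strand), was at 224.7, 239.8 and 247.7 CPM in TCR alone and at 270.4, 246.7 and 254.0 CPM in TCR+DMGV. It had the highest log2 fold change of the 10, 0.11 ± 0.07 (SE; 95% interval -0.06 to 0.29), and the groups still overlapped. Atic, which closes the ring (chr1:71557150-71579631, plus strand), was at 374.6, 414.4 and 400.6 CPM in TCR alone and at 394.2, 427.0 and 423.9 CPM in TCR+DMGV, with a log2 fold change of 0.07 ± 0.07 (SE).

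At the branch to XMP, Impdh2 and Impdh1 catalyse the same reaction. Impdh2, the form known to be induced in dividing cells (chr9:108560286-108565584, plus strand), was at 463.5, 480.2 and 520.1 CPM in TCR alone and at 518.2, 514.0 and 495.9 CPM in TCR+DMGV. The highest sample was in TCR alone, and the log2 fold change was 0.06 ± 0.07 (SE). Impdh1, the form made at a low level in most tissues (chr6:29200434-29216364, minus strand), was at 101.9, 132.5 and 118.1 CPM in TCR alone and at 147.7, 106.6 and 103.5 CPM in TCR+DMGV. TCR+DMGV replicate 1 was its highest sample, while replicates 2 and 3 of that group lay close to the lowest, and the log2 fold change of 0.02 ± 0.16 (SE) became -0.16 without TCR+DMGV replicate 1. The FPKM ratio of Impdh2 to Impdh1 was 4.49 ± 0.534 in TCR alone and 4.68 ± 0.800 in TCR+DMGV (SD, n = 3 each), so that Impdh2 made up most of the IMP dehydrogenase RNA in every sample. A processed pseudogene, Impdh2-ps, is 99.7% identical to Impdh2 over 1545 bases and was listed at 431 to 511 counts per sample, so a small part of the counts could be split between them.

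At the branch to AMP, Adss and Adssl1 also share a reaction, and both varied more than any gene of IMP synthesis. Adss (chr1:177762962-177796511, minus strand) was at 377.9, 408.0 and 205.7 CPM in TCR alone and at 195.1, 364.1 and 355.8 CPM in TCR+DMGV. The low samples were TCR alone replicate 3 and TCR+DMGV replicate 1, the same 2 that stood apart on the first principal component, and the others lay at least 0.79 above them on the log2 scale. Its log2 fold change was -0.12 ± 0.31 (SE; 95% interval -0.85 to 0.62). It moved to -0.36 without TCR alone replicate 3, to 0.12 without TCR+DMGV replicate 1, and to -0.12 without both.

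The same pattern was not peculiar to Adss. Among the genes tested, 643 (4.35%) were lower in those 2 samples than in the other 4 by at least 0.5 on the log2 scale, against 23 (0.156%) that were higher by as much. The median GC content of the 643 genes was 40.6%, compared with 50.2% over all genes tested, and that of the Adss transcripts was 42.5%. Of the genes of the pathway lists used here, Gmps, the GMP synthase (39.0% GC, lower by at least 0.57), was the only other one with that gap. Within Adss the share of counts given to the retained-intron transcript Adss-203 was 4.59% and 10.1% in the same 2 samples and 1.01% to 1.22% in the other 4. What part GC content or retained introns have in the low values was not tested. With a GC trend removed from each sample the log2 fold change was -0.05.

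Adssl1, the isozyme known from muscle (chr12:112620045-112641360, plus strand), was close to the lower limit of what was counted, with 85, 93 and 120 counts in TCR alone, against 51, 74 and 42 counts in TCR+DMGV. In CPM these were 2.24, 2.28 and 2.90 against 1.15, 1.72 and 1.06, so every TCR+DMGV sample lay below every TCR alone sample, as was the case for 3.94% of the genes tested. Its log2 fold change was -0.92 ± 0.28 (SE; 95% interval -1.57 to -0.26), and without both samples that stood apart it was -0.70. On the scale of log2(FPKM + 1), which compresses values this low, it was -0.41. As a share of the summed FPKM of Adss and Adssl1, Adssl1 made up 1.79% ± 1.01 in TCR alone and 0.949% ± 0.297 in TCR+DMGV (SD, n = 3 each). Per sample the share was 1.25%, 1.17% and 2.95% against 1.22%, 0.997% and 0.631%, so the groups overlapped. The highest share was in TCR alone replicate 3, where Adss was low. In bulk RNA fewer cells that express a gene and less RNA per cell cannot be told apart.

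Counted together, 0 of the 10 genes had an adjusted p under 0.05 with edgeR (background 0.0135% of genes) and 1, Adssl1, an unadjusted p under 0.05 on the lower side (background 1.56%). DESeq2 also gave 0 of the 10 (background 14 of 19448 genes). One gene had groups that did not overlap on the lower side (background 3.94%) and 0 on the higher side (background 4.92%). The log2 fold change was above 0 for 7 of 10 genes, against 50.6% of all genes, and its median was 0.05 against 0.00 over all genes. Since these values were known when the genes were chosen, nothing further is read from the counts.

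**Figure D2:**
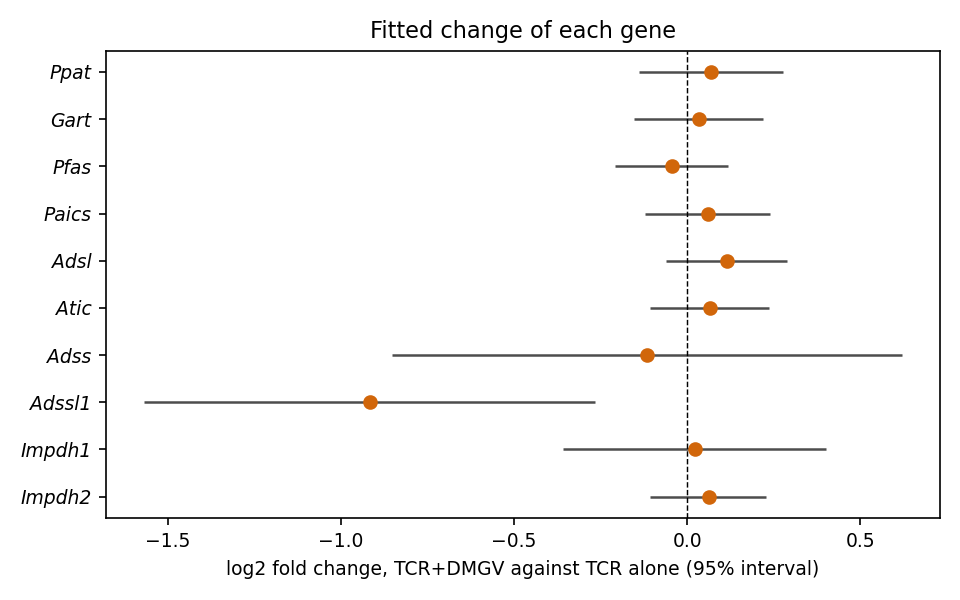
Fitted log2 fold change of each gene, TCR+DMGV against TCR alone (orange points), with its 95% interval (grey lines) from the edgeR fit over all genes; the dashed line marks no difference. For 9 genes the interval includes 0, and the interval of Adss, from -0.85 to 0.62, is the widest that does.

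Each gene's profile over samples was compared with the mean profile of the 10 genes, to which Adss and Adssl1 also contribute. Each sample's log2 CPM was set against the gene's own 6-sample mean, and the 10 deviations were averaged to one profile. Measured as a root mean square distance to it, the lowest of the 10 were Atic (0.071), Gart (0.0766), Pfas (0.0801) and Ppat (0.0878). Impdh2 (0.0921), Paics (0.0927), Adsl (0.119) and Impdh1 (0.204) followed, and Adss (0.410) and Adssl1 (0.479) lay farthest. Of 11153 genes outside the 10 with a mean log2 CPM above 1, those nearest the profile over the 6 samples were Edem1 (0.0184), Tfdp1 (0.0193) and Slbp (0.0215). All of these were nearer than any of the 10 genes. The mean profile ran from -0.08 to 0.10, and Edem1 from -0.08 to 0.11. A distance thus reflects both the course of a gene over the samples and the size of its variation. Likeness among the 10 is not read from it.

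**Figure D3:**
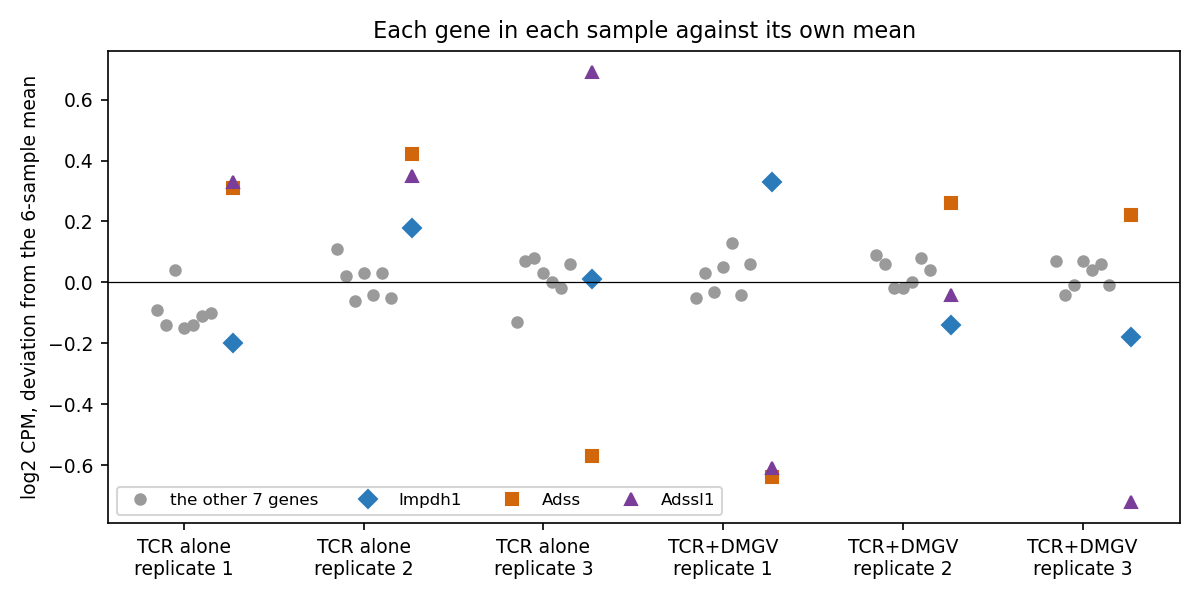
Deviation of log2 CPM from the gene's 6-sample mean for each gene in each sample; grey circles are Ppat, Gart, Pfas, Paics, Adsl, Atic and Impdh2, the other symbols Impdh1, Adss and Adssl1. Adss falls to -0.57 and -0.64 in TCR alone replicate 3 and TCR+DMGV replicate 1, where the grey circles stay between -0.13 and 0.13.

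Most of the genes were represented by 1 transcript. The leading transcript held 98.9% of the counts of Atic, 97.4% of Pfas, 97.2% of Adss, 94.8% of Adssl1, 94.7% of Impdh2 and 94.1% of Ppat over the 6 samples. Gart, Paics, Adsl and Impdh1 were divided among several. Of the 63 transcripts, 61 had a count, 42 passed the filter on low counts and 18 held at least 10% of their gene. Transcript counts come from the authors' assignment of reads between overlapping isoforms, so a share carries the error of that estimate too.

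Impdh1 had 3 transcripts whose groups did not overlap, more than any other of the 10 genes. Over all 38401 transcripts tested, the counts lay above without overlap in TCR+DMGV for 4.49% and below for 4.47%, and as this contrast was known, nothing is read from the number. Its main transcripts begin at either of 2 places, 4067 bases apart, called here the distal and the proximal start after their distance from the end of the gene. The distal start gives Impdh1-202, Impdh1-207, Impdh1-210 and Impdh1-208, and the proximal start gives Impdh1-201 and Impdh1-205. Impdh1-202, Impdh1-207 and Impdh1-201 have a coding part of the same length, 1542 bases, and the same start codon, so they differ in what precedes it, while Impdh1-210 skips the exon of that start codon and has a coding part of 1614 bases. The joins after the first exon show this. They are given 5′ to 3′ from the GENCODE M21 transcripts, with the 15 bases of the first exon in capitals and the first 15 bases of the next exon in lower case.
Impdh1-202: CTACGAGCCGGAGAGcatggcggactacct
Impdh1-207: CTACGAGCCGGAGAGcagcatggcggacta
Impdh1-210: CTACGAGCCGGAGAGcgacttcctgatcct
Impdh1-201: TGGCCTCACCTACAAcgacttcctgatcct

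The first exon thus ends with the same bases in the 3 distal transcripts, Impdh1-207 keeps 3 more bases at the next join, and Impdh1-210 enters the same exon as Impdh1-201. The 250 bases before each start, from RefSeq on GRCm38.p6 and read along the minus strand, are shown for reference. The share of counts assigned to transcripts annotated to each start is given below. Where transcription began was not measured.
Distal start, chr6:29216365-29216614: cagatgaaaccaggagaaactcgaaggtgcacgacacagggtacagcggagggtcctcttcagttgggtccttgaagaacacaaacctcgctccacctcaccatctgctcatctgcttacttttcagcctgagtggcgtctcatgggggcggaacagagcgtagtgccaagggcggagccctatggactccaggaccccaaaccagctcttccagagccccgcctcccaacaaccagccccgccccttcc
Proximal start, chr6:29212298-29212547: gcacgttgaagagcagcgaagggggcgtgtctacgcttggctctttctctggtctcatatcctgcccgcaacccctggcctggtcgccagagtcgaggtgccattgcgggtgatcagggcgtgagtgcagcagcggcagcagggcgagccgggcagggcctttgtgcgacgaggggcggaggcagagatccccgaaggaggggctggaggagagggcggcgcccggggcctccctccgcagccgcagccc
The proximal window lies in the first intron of Impdh1-202 and is richer in G and C (69.6%) than the distal window (59.2%).

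The distal transcripts held 40.0%, 48.3% and 46.5% of the Impdh1 counts in TCR alone, against 22.7%, 27.4% and 27.9% in TCR+DMGV. Every TCR+DMGV sample lay below every TCR alone sample, with means of 45.0% ± 4.36 and 26.0% ± 2.86 (SD, n = 3 each). The proximal transcripts held 59.5%, 50.7% and 52.1% in TCR alone and 76.3%, 67.6% and 70.6% in TCR+DMGV, again with no overlap. This split by start was made after the transcript values had been seen and has no test. It was present without the 2 samples that stood apart, where the distal share was 40.0% and 48.3% against 27.4% and 27.9%.

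In counts, the distal transcripts summed to 1550, 2614 and 2271 in TCR alone and to 1492, 1258 and 1144 in TCR+DMGV, and the proximal ones to 2302, 2743 and 2546 against 5015, 3106 and 2897. Impdh1-202 carried the clearest difference and was also singled out after its values were seen, since it held only 7.90% of the gene. Its counts were 515, 640 and 666 in TCR alone, against 187, 173 and 143 in TCR+DMGV, a log2 fold change of -1.94 ± 0.21 (SE), which stayed between -2.03 and -1.88 as each sample was left out in turn. Its adjusted p was 0.269 with edgeR and 2.18e-14 with DESeq2, so that whether it is called depends on the tool.

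Impdh1-207 went the same way, with 824, 845 and 1139 counts against 497, 638 and 263 and a log2 fold change of -1.10 ± 0.34 (SE). Impdh1-201, from the proximal start, had 2302, 2137 and 2546 counts against 5015, 3007 and 2897 and a log2 fold change of 0.55 ± 0.22 (SE), or 0.28 without TCR+DMGV replicate 1. The other distal transcripts did not share the pattern. Impdh1-210 had 172, 1049 and 419 counts against 669, 224 and 686, and Impdh1-208, with 1.97% of the gene, had 39, 80 and 47 against 139, 223 and 52 and a log2 fold change of 1.22 ± 0.60 (SE). Neither Impdh1-207 nor Impdh1-201 had an adjusted p under 0.05 with either tool.

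**Figure D4:**
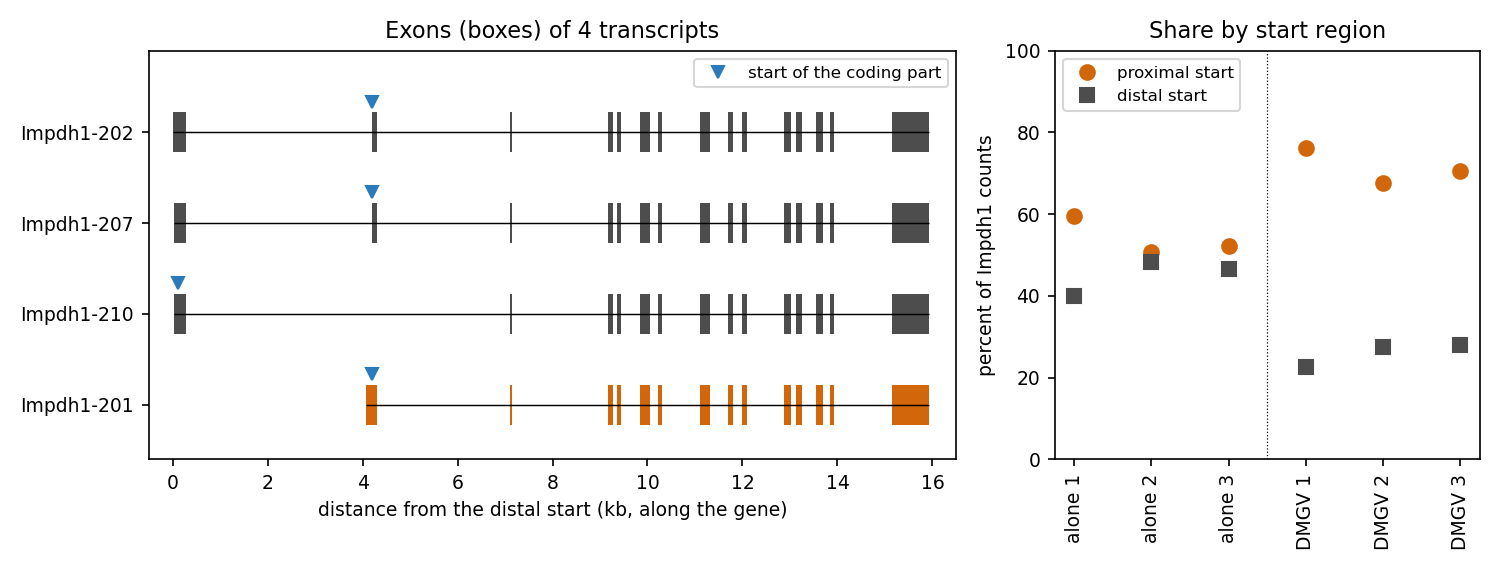
Left, exons (boxes) of 4 Impdh1 transcripts by distance in kb from the distal start, with the start of the coding part as a triangle. Right, percent of Impdh1 counts on transcripts annotated to the distal (grey squares) and proximal (orange circles) start in each sample. The distal share is 40.0% to 48.3% in the 3 TCR alone samples (alone) and 22.7% to 27.9% in the 3 TCR+DMGV samples (DMGV).

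Gart was divided between its full form, Gart-201, a short coding form, Gart-202, and Gart-203, annotated as a target of nonsense-mediated decay. Gart-202 has 11 exons and a coding part of 1299 bases, compared with 22 exons and 3030 bases in Gart-201, because it reads on where Gart-201 splices and ends early. The sequences around that point, from GENCODE M21, have the last 15 bases of exon 11 of Gart-201 in lower case and what follows in capitals.
Gart-201: cctccagcggcccagGGGCTTGACTTACAA
Gart-202: cctccagcggcccagGTAAAGATGCCCTCT
Gart-201 held 49.7%, 54.0% and 50.6% of Gart counts in TCR alone, against 59.6%, 50.5% and 21.9% in TCR+DMGV. The short form held 31.7%, 20.6% and 29.2% in TCR alone and 15.6%, 29.3% and 29.3% in TCR+DMGV, so its groups overlapped. TCR+DMGV replicate 3 was the odd sample, with 48.8% of counts on Gart-203 where the other 5 samples had 18.6% to 25.4%. The total for the gene in that sample, 581.7 CPM, was within the range of the others.

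Paics had 3 transcripts with the same coding length of 1275 bases. Paics-203 held 33.7%, 5.36% and 5.70% of Paics counts in TCR alone, against 32.9%, 35.8% and 43.8% in TCR+DMGV. Low values were thus found in 2 of the TCR alone samples, and TCR alone replicate 1 resembled the TCR+DMGV samples. The log2 fold change of 1.47 ± 0.73 (SE) rose to 2.74 without that sample.

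Adsl was the least even. Adsl-201, a transcript of 3711 bases, held 76.0%, 14.9% and 16.0% in TCR alone and 55.6%, 15.0% and 59.9% in TCR+DMGV. The samples fell into a set led by Adsl-201 and a set in which Adsl-204 (1595 bases) and Adsl-206 (1439 bases) each held 33.0% to 36.7%, and both sets were found in both groups. Neither set matched the 2 samples that stood apart. The count of the whole gene differed far less between samples, by 0.27 on the log2 scale from lowest to highest.

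**Figure D5:**
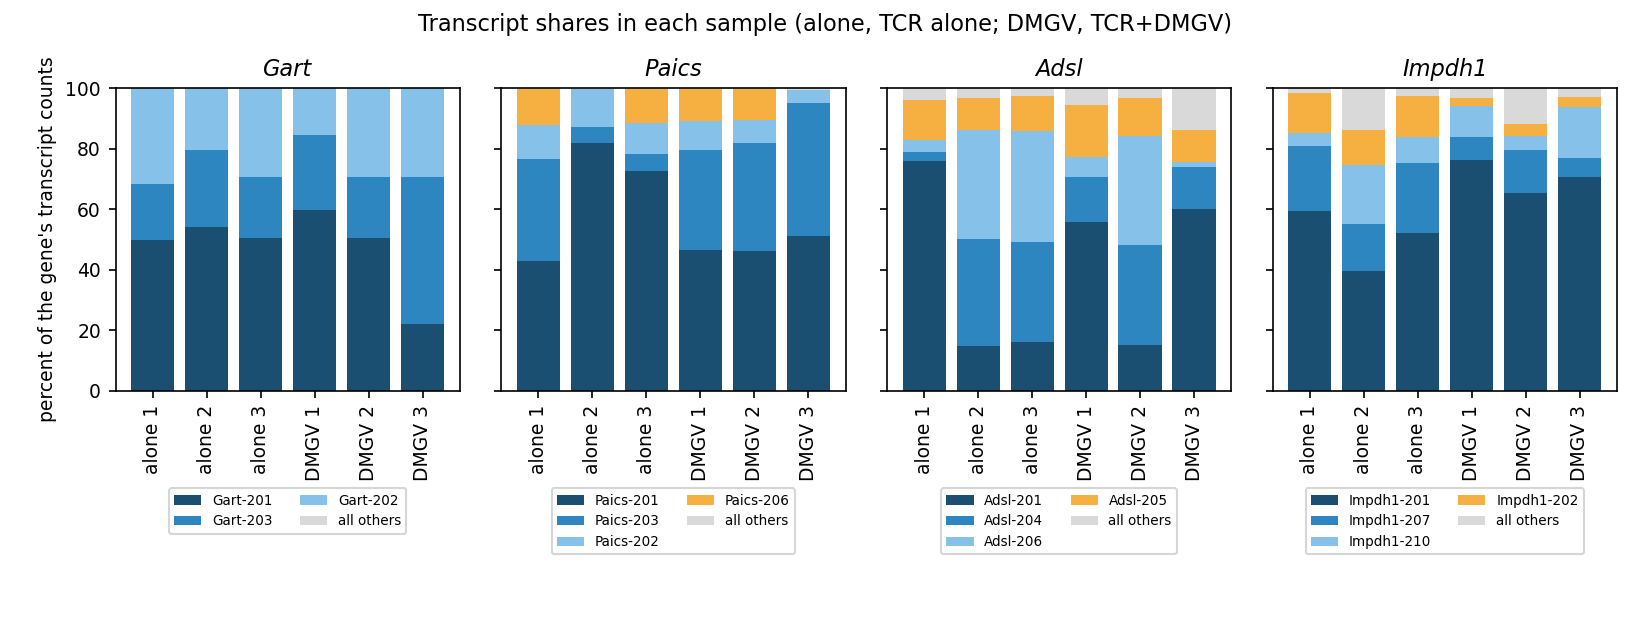
Share of each gene's counts on its main transcripts in each sample, as stacked bars that sum to 100 percent, for Gart, Paics, Adsl and Impdh1. Adsl-201 (dark blue) ranges from 14.9% to 76.0% within TCR alone, while Impdh1-201 is 39.5% to 59.5% in TCR alone and 65.5% to 76.3% in TCR+DMGV.

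Over the 42 transcripts tested, 0 had an adjusted p under 0.05 with edgeR (background 0% of 38401 transcripts, of which 1235 had an unadjusted p under 0.05). DESeq2 called 400 of 50760 transcripts in all, and Impdh1-202 among those of these genes. At an unadjusted p under 0.05 were 2 that were higher (background 1.74%), Atic-202 and Impdh1-201, and 3 that were lower (background 1.48%), Adssl1-201, Impdh1-207 and Impdh1-202. Groups did not overlap for 3 transcripts that were higher in TCR+DMGV (background 4.49%), Paics-203, Impdh1-201 and the minor Atic-202, and for 4 that were lower (background 4.47%), Adssl1-201, Impdh1-207, Impdh1-202 and the minor Impdh2-205. As shares of the gene, 2 were higher without overlap (background 4.67% of 31384 transcripts), Impdh1-201 and Atic-202, and 4 were lower (background 4.64%), Paics-202, Impdh1-207, Impdh1-202 and Impdh2-205.

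Some of the genes lie close to another gene. Ppat and Paics are transcribed away from each other and overlap by 272 bases at their first exons, and Gart and Son, which encodes a splicing cofactor, lie 553 bases apart on opposite strands. Whether reads were counted by strand is not given in the sources used here, so reads in the shared stretch of Ppat and Paics cannot be assigned with certainty. The E-box CACGTG, the site bound by Myc and its partner, reads the same on both strands. It was found in the 250 bases before the RefSeq start of 3 genes among 9 that had a window, or 3 of 10 windows (30.0%) since Impdh1 has 2, compared with 6.02% of all 32851 windows. Pfas had no window. The RefSeq starts of these 3 genes differ from those of their GENCODE transcripts. Measured to the leading GENCODE transcript, the E-box began 208 bases before the start in Paics, overlapped the start in Atic, and began 40 bases after it in Impdh2, so only that of Paics lies before the start on both annotations. The E-boxes are shown in capitals with up to 12 bases on each side, with the distance to the RefSeq start.
Atic, chr1:71557137-71557155, 7 bases before the RefSeq start: ggacctcggggtCACGTGg
Paics, chr5:76951087-76951116, 203 bases before the RefSeq start: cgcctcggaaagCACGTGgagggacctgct
Impdh2, chr9:108560314-108560343, 110 bases before the RefSeq start: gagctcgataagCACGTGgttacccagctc
The Paics window lies within the first exon of Ppat on the other strand. A match describes the letters of the window and not a bound site. Myc itself was at 320.2 ± 14.9 CPM in TCR alone, against 335.6 ± 19.6 CPM in TCR+DMGV (SD, n = 3 each), and Atf4, a factor of the amino acid response that also acts on this pathway, at 304.8 ± 24.1 and 322.5 ± 19.5 CPM.

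The genes around the pathway were taken from 5 lists of PRPP supply and GMP synthesis, salvage, turnover of AMP and GMP, nucleotide kinases with ribonucleotide reductase, and transporters. Of 48 genes matched, 42 passed the filter on low counts. None of the 42 had an adjusted p under 0.05 with edgeR, 3 had an unadjusted p under 0.05 on the higher side (background 1.63%) and 1 on the lower side (background 1.56%). Groups did not overlap for 3 on the higher side (background 4.92%) and 1 on the lower side (background 3.94%). Their median log2 fold change was 0.03, against 0.00 over all genes.

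Upstream of the ring, Prps1, which makes PRPP, was at 195.8 ± 27.6 CPM in TCR alone, against 190.5 ± 24.7 CPM in TCR+DMGV (SD, n = 3 each). In salvage, Hprt, which returns hypoxanthine and guanine to nucleotides, was at 189.6 ± 43.9 and 182.4 ± 34.8 CPM, and Adk, the adenosine kinase, at 137.4 ± 3.18 and 138.7 ± 7.86 CPM. Gmps was at 305.8, 370.5 and 189.5 CPM in TCR alone and at 204.6, 321.6 and 304.7 CPM in TCR+DMGV, low in the same 2 samples as Adss. By a smaller gap, short of 0.5 on the log2 scale, Hprt was also lowest in those 2 samples. It was at 139.9 and 142.5 CPM there, against 198.8 CPM or more in the others. The groups overlapped for all of these genes.

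In turnover, Ampd2, an AMP deaminase, was at 121.9 ± 7.72 and 121.5 ± 8.14 CPM, and Samhd1, which degrades deoxynucleotides, at 284.4 ± 14.5 and 275.7 ± 10.2 CPM. Nme2, a nucleoside diphosphate kinase, was at 391.8, 384.8 and 458.2 CPM in TCR alone and at 505.6, 446.2 and 503.5 CPM in TCR+DMGV, a log2 fold change of 0.24 ± 0.10 (SE; 95% interval 0.01 to 0.46) with 1 pair of samples out of order. Rrm1, the large subunit of ribonucleotide reductase, was at 666.2 ± 79.1 and 599.6 ± 22.4 CPM. Among the transporters, the nucleoside carriers Slc29a1 and Slc29a3 were at 143.7 ± 18.5 and 163.8 ± 8.59 CPM and at 75.0 ± 5.97 and 80.0 ± 2.90 CPM.

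Mthfd1, which makes the formyl folate used by Gart and Atic, was at 469.0 ± 44.1 and 493.2 ± 4.39 CPM, and Shmt2, the mitochondrial serine hydroxymethyltransferase, at 736.9 ± 50.5 and 708.7 ± 22.4 CPM. In the list of folate and glutamine supply, 0 of 12 genes had an adjusted p under 0.05, and the median log2 fold change was -0.11. Groups did not overlap for 2 of the 12 on the lower side (background 3.94%) and for 0 on the higher side (background 4.92%). Pyrimidine synthesis, set beside the purine genes for comparison, also had 0 of 10, with Cad at 656.0 ± 39.6 and 669.7 ± 13.8 CPM and Uck2 at 384.1 ± 25.9 and 383.6 ± 35.8 CPM. In that list the groups did not overlap for 1 of the 10 on the lower side and for 0 on the higher side. Son, the neighbour of Gart, was at 518.3 ± 34.3 and 507.7 ± 32.0 CPM.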

How the data were processed

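Per the labels and the study's methods, reads were mapped with HISAT2 2.0.4 and expression was calculated with StringTie. The authors deposited whole-number counts and FPKM values per gene and transcript. How counts were made from StringTie's output is not given in the sources used here. The labels name build mm9, but the identifiers are versioned Ensembl ones, and 99.7% of genes match GENCODE M21 (GRCm38) without the version, which gave symbols and positions. Members and lists were chosen with earlier results of these data known. Named genes are all 10 members, the 2 genes of highest mean CPM in each other list (84 of 85 list genes matched), and transcripts with at least 10% of their gene.

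Counts were fitted with edgeR 4.0.16 (quasi-likelihood test, TMM, default filter, 2 groups of 3, two-sided, Benjamini-Hochberg adjustment over all features) in R 4.3.3. CPM is scaled by TMM. Alternatives used DESeq2 1.42.0, limma 3.58.1 on log2(FPKM + 1) or log2(FPKM + 0.1), other scalings and filters, and samples left out. Copies were sought with BLAST 2.17.0. Between replicates, the median chi-square per gene was 3.89 to 9, so none was a repeat. With simulated counts of 14420 genes, a log2 change of 1 put into 200 was recovered for 53% and a change of 0.5 for 0%, and for 35179 transcripts a change of 1 for 0%.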

Additional observations from a re-analysis of the deposited data

How the results depend on the processing

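Of 170 log2 fold changes recomputed for the 10 genes over 17 settings, 168 moved by less than the spread between replicates, 2 moved by more (Adssl1, at -0.41 with log2(FPKM + 1), with and without the filter), and 0 had an adjusted p under 0.05. The mean levels stayed within that spread when the median over samples was taken. Signs turned for Gart (-0.04) and Paics (-0.01) without TCR alone replicate 1, for Adss and for Impdh1.

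Over all genes, 2 had an adjusted p under 0.05. The count was 14 with DESeq2, 1 with library size alone, 1 with no filter, 1 with the GC correction, 12 with both samples that stood apart left out, and 0 in each of the 3 fits of FPKM (392 to 765 genes at an unadjusted p under 0.05). With samples left out singly it was 0 to 5 (368 to 1109 unadjusted), the 5 without TCR+DMGV replicate 1. Over all transcripts it was 0, 400 with DESeq2, and 0 to 1 with samples left out singly, the 1 without TCR alone replicate 3. The GC correction and the joint omission were added after the data were seen, and the cause of these differences was not tested.

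The replicate numbers gave no clear pairing of the samples, and the sources do not say whether same-numbered samples share a mouse. Deviations of same-numbered samples correlated at -0.154, 0.121 and -0.148, and not every sample correlated best with its own number. These correlations cannot exclude a pairing, since the 2 samples that stood apart carry different numbers. With the replicate number as a block, 0 genes (340 unadjusted) and 0 transcripts (855 unadjusted) had an adjusted p under 0.05. In simulated counts, a log2 change of 0.5 was called for 0% of the altered genes, so small changes of single genes were not detectable with 3 samples a group.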
